A study of Mus musculus with 24 samples.

Results

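Brain RNA of mice that drank brazzein was compared with brain RNA of mice that drank sucrose, with db/db and db/+ mice pooled. The libraries were chosen by their titles alone: 4 of the 24 samples of the series are brain on brazzein and 4 are brain on sucrose, and each set of 4 holds 2 db/db and 2 db/+ libraries. Brain RNA of mice on plain water, with 2 libraries per genotype, is given beside them as a reference. All animals were male, their strain entry is C57/BL6, and their treatment entry is 16 weeks. The series set out to examine brain and liver after intake of 3M-brazzein, a variant of brazzein, or sucrose in db/db mice. The db mutation damages the leptin receptor, so db/db mice cannot respond normally to leptin and become obese and diabetic, and db/+ mice carry a functional copy. A separate genotype entry of the labels gives db/+ for the db/db brain samples too and was not used. The labels do not name the brain region, the age of the animals or whether the replicates are separate animals, so the p-values measure the spread between libraries, which may be technical.

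Brazzein is a small, very sweet protein from a West African fruit. It binds the sweet taste receptor, which is made of TAS1R2 and TAS1R3, and it carries no sugar. Sucrose acts on the same receptor and also supplies glucose and fructose, so the comparison sets a sweet drink without sugar against one with sugar. In the brain, sweet taste and sugar intake engage dopamine signalling in the striatum and the neuropeptide cells of the hypothalamus that govern feeding and fluid balance.

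No gene passed the test for a difference between brazzein and sucrose over both genotypes. Of 23653 genes tested, 0% had a Benjamini-Hochberg adjusted p under 0.05 in edgeR's quasi-likelihood test, and the smallest adjusted p was 0.171. At an unadjusted p under 0.05 there were 951 genes, 505 higher and 446 lower on brazzein, which is 4.02% of those tested where 1183 would be 5%. DESeq2, run on the same counts, called 66 genes, 31 higher and 35 lower. The outcome in these libraries therefore depends on the test, and genes named below are described by their levels. The 4 brazzein libraries lay all above or all below the 4 sucrose libraries for 475 genes, 246 above and 229 below, which is 2.01% of those tested.

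The data bounded the difference closely for most genes. The 95% interval of the difference lay within 2-fold either way for 70.6% of all genes tested and for 88.3% of the 16012 genes with a mean of at least 1 count per 1000000 counts of the library (CPM). The median log2 difference was 0.00, and 50.5% of genes were above 0. The 8 libraries held 58287665 to 77772849 estimated counts, with 28711 to 29796 genes above 0, and mitochondrial transcripts took 6.47% to 7.46% of the counts. Libraries of the same group correlated at 0.9499 to 0.958 (4 pairs, Pearson's r of log2 levels across genes with a mean of at least 10 CPM), and libraries of the same genotype on the other drink at 0.946 to 0.960 (8 pairs).

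**Figure D1:**
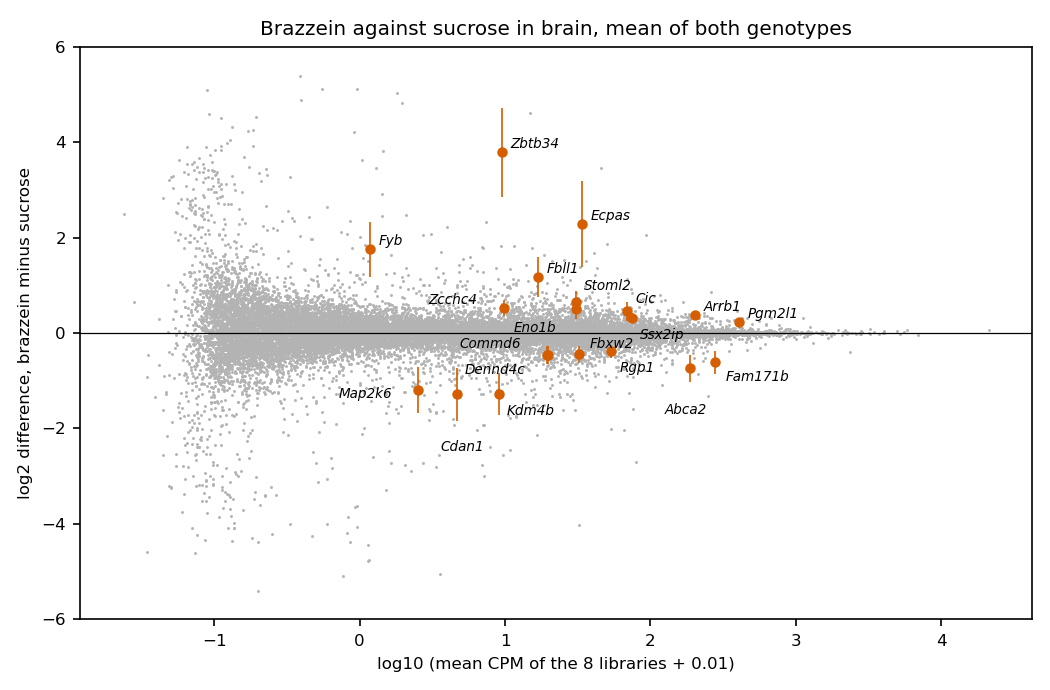
Log2 difference between brazzein and sucrose (mean of both genotypes, y axis) against the log10 mean level of the 8 libraries (x axis) for 23653 brain genes in grey. The 20 genes of smallest p are in orange with their 95% intervals, and 14 genes lie beyond the y axis limits of 6 either way.

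Leptin receptor transcripts were present in both genotypes. Lepr measured 3.13 and 3.43 CPM in the db/+ brazzein libraries, 3.87 and 3.31 in db/+ sucrose, 2.60 and 2.40 in db/db brazzein, and 2.77 and 2.004 in db/db sucrose. Here and below the values are for replicate 1 and then replicate 2. The db mutation alters splicing of the receptor, so a gene total does not check the genotype. Lepr differed by a log2 of -0.03 between drinks (SE 0.13), with a 95% interval from -0.34 to 0.27.

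Growth hormone and other hormones of the pituitary gland marked single db/+ libraries and not a drink. Gh, which encodes growth hormone, measured 0.424 and 111 CPM in db/+ brazzein and 311 and 0.902 in db/+ sucrose. In db/db it was listed at 0 and measured 0.267 on brazzein, and was listed at 0 and measured 1.53 on sucrose. Only 1 library on each drink was high, replicate 2 on brazzein and replicate 1 on sucrose, so the drinks overlapped fully. On water, Gh measured 7.57 and 0.676 in db/+ and 2.90 and 0 in db/db. The log2 difference between drinks was -2.01 with an SE of 2.29 (edgeR adjusted p = 1.00).

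The same 2 libraries were also highest in the other hormone transcripts of the gland. Prl, which encodes prolactin, measured 0 and 19.6 CPM in db/+ brazzein, 37.3 and 0.195 in db/+ sucrose, and at most 0.103 in the 4 db/db libraries on these drinks. Cga, the subunit shared by the glycoprotein hormones, measured 0 and 2.57 CPM in db/+ brazzein and 7.16 and 0 in db/+ sucrose. On water, db/+ replicate 1 held 2.71 CPM of Prl and 0.416 of Cga, and db/db at most 0.119 and 0.149. Pomc, the precursor of corticotropin and melanocortins, measured 2.31 and 28.8 CPM in db/+ brazzein and 10.9 and 3.31 in db/+ sucrose. In db/db, Pomc ran from 1.52 to 1.77 on both drinks, so a low level was present in every library. Neurons of the arcuate nucleus are known to make Pomc too, and its source here was not tested. Of the 14 pituitary genes listed, 11 were tested, and 8 of these were higher in both of those libraries than in any of the other 6: Gh, Prl, Pomc, Cga, Lhb, Fshb, Pitx1 and Ghrhr. The 2 libraries were picked by their Gh level, so Gh was bound to be among the 8. Fshb and Ghrhr had at most 8 and 6 counts in any other brain library. They passed the filter on low counts through those 2 libraries alone, so they were bound to be among the 8 as well. The same count over all genes was not made, so the 8 are a description. Pitx1 was near the floor, at 20 counts in the brazzein library and 22 in the sucrose library. Tshb and Chga did not follow, and Chga, which neurons also use, ran from 209 to 256 CPM in all 8. Pou1f1, the transcription factor that activates Gh and Prl, was listed at 0 except for 16 counts in the db/+ sucrose library high in Gh, and like Tbx19 it was too low to test. The summed level of the tested pituitary genes, Chga included, ran from 229 to 379 CPM on brazzein and from 231 to 590 on sucrose. In the other 6 libraries this sum was nearly all Chga, so it is not a level of pituitary transcripts. What these transcripts have to do with the dissection was not tested.

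**Figure D2:**
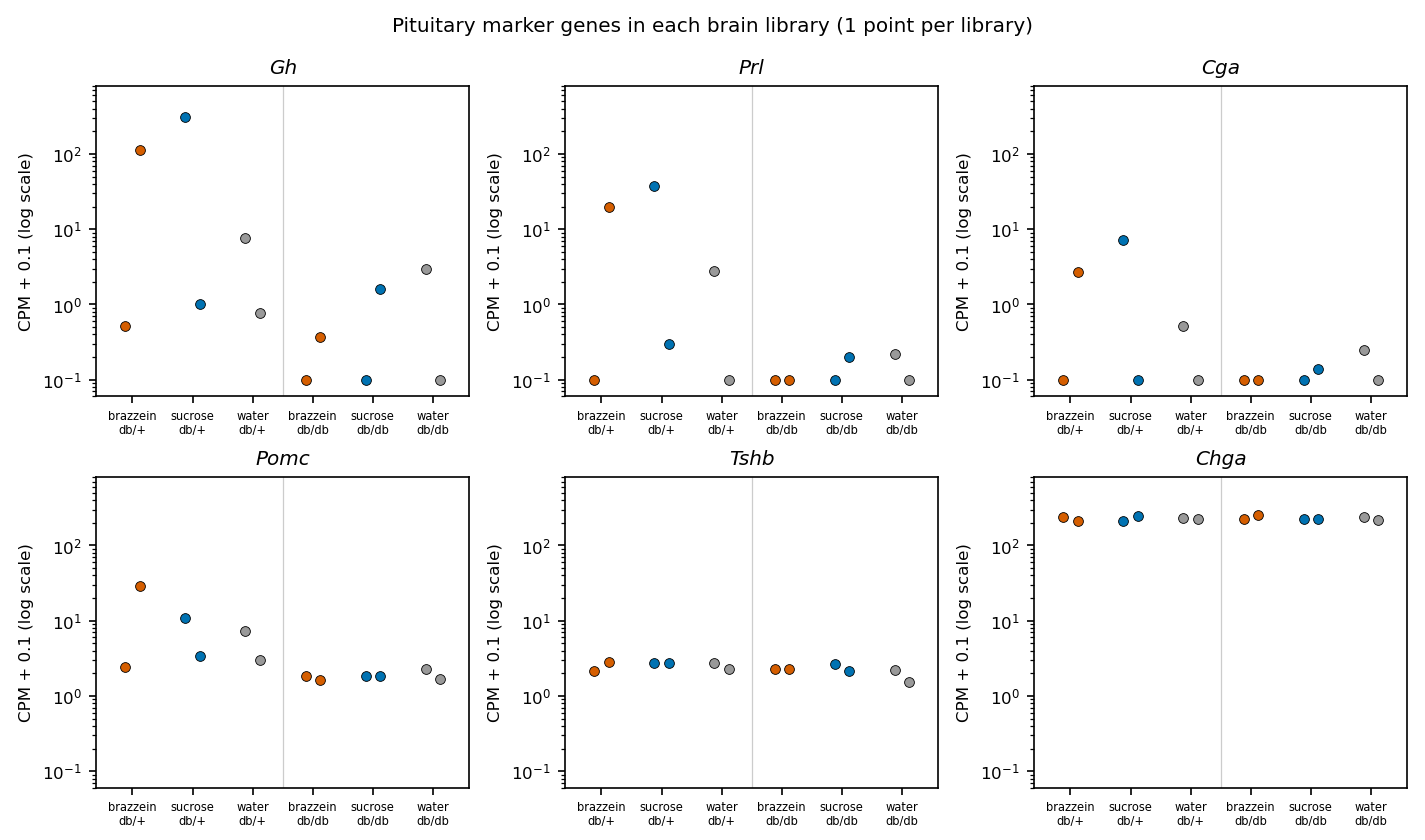
Level of 6 pituitary marker genes in each brain library (1 point per library, log scale, CPM + 0.1), with replicate 1 left of replicate 2 in each group. Gh, Prl, Cga and Pomc are high in the same 2 db/+ libraries, 1 on brazzein and 1 on sucrose, while Tshb and Chga are not. Replicate 1 of db/+ water is next highest in Gh, Prl, Cga and Pomc, at 7.57, 2.71, 0.416 and 7.17 CPM.

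The promoter of Prl is shown because its transcript was high in the same libraries as Gh, beside that of Cga, whose transcript was too. Each stretch is the 250 bases before the annotated start from RefSeq (GRCm38.p6), at chr13:27057320-27057569 on the plus strand for Prl and chr4:34893529-34893778 on the plus strand for Cga. Capitals mark matches to ATGNATA or, on the other strand, TATNCAT, a core of the sites that POU1F1 is known to bind.
Prl: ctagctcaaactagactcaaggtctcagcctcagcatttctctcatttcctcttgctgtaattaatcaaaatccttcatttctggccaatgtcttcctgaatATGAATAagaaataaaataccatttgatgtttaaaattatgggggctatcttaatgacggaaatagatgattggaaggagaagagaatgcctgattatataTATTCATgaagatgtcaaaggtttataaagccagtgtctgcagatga
Cga: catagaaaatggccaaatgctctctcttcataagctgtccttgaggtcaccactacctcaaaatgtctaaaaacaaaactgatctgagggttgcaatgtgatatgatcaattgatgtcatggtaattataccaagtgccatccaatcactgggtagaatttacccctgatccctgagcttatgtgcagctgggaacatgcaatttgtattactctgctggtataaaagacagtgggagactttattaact
The Prl stretch holds 2 matches, which begin 148 and 47 bases before the start, and the Cga stretch holds 0. The stretches of Pomc, Lhb and Fshb, also high in those libraries, and of Tshb, which was not, hold 0 matches each and are not shown. The letters occur in 7.92% of all 32851 promoters of this length, so a match is a description of the sequence. Gh was not in the promoter table.

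The 20 genes of smallest p with a mean of at least 1 CPM had edgeR adjusted p-values from 0.171 to 0.731, so none passed. All 20 passed in DESeq2. They divided into 9 whose 4 brazzein and 4 sucrose libraries did not overlap, against the 2.01% of all genes, and 11 that overlapped. The 9 were chosen by the same comparison, so their separation is a description.

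Of those 9, 6 were higher on brazzein. Arrb1, which encodes beta-arrestin 1, an adaptor that ends signalling by G protein-coupled receptors, measured 200.02 and 209 CPM in db/+ brazzein, 185 and 196 in db/+ sucrose, 250.3 and 260.2 in db/db brazzein, and 162 and 167 in db/db sucrose. The gap was wide in db/db and narrow in db/+, at log2 differences of 0.63 and 0.10, and the difference over both was 0.37 (SE 0.04, edgeR adjusted p = 0.224). Water gave 189 and 205 CPM for Arrb1 in db/+, and 219 and 203 in db/db, between the 2 drinks of that genotype. Ecpas, which encodes an adaptor and scaffold of the proteasome, had the largest difference of the 6, at a log2 of 2.28 (SE 0.39). It measured 82.9 and 64.2 CPM in db/+ brazzein against 15.2 and 8.78 in db/+ sucrose, and 22.6 and 56.5 in db/db brazzein against 13.9 and 6.59 in db/db sucrose. Its water libraries were split by genotype, at 80.0 and 56.2 CPM in db/+ and 25.1 and 14.7 in db/db.

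Stoml2, which encodes a scaffold protein of the inner mitochondrial membrane, measured 31.4 to 43.6 CPM in the 4 brazzein libraries and 21.9 to 27.7 in the 4 sucrose libraries, a log2 difference of 0.65 (SE 0.10). Its 4 water libraries, at 18.2 to 25.7 CPM, lay with sucrose. Zcchc4, an RNA methyltransferase acting on ribosomal RNA, measured 10.9 to 12.02 CPM on brazzein and 6.95 to 9.22 on sucrose, a log2 difference of 0.52 (SE 0.07). Its water libraries, at 9.34 to 11.1 CPM, lay above the sucrose range, with 3 below the brazzein range and 1 within it. Ssx2ip, a protein of centriolar satellites, measured 77.9 to 87.0 CPM on brazzein and 60.7 to 72.2 on sucrose. Water gave 79.9 to 94.1 CPM for Ssx2ip, so the sucrose libraries were the ones that stood lower. Pgm2l1, which makes glucose 1,6-bisphosphate and is abundant in brain, measured 393 to 480.4 CPM on brazzein, 361 to 386 on sucrose and 419 to 449 on water, and its log2 difference was 0.22 (SE 0.04).

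Lower on brazzein without overlap were Map2k6, Fbxw2 and Commd6. Map2k6, a kinase that activates p38 MAP kinase, measured 1.23 and 1.35 CPM in db/+ brazzein against 2.53 and 4.79 in db/+ sucrose, and 1.70 and 1.91 in db/db brazzein against 3.27 and 3.39 in db/db sucrose. The log2 difference was -1.19 (SE 0.21), with -1.50 in db/+ and -0.88 in db/db. Water gave 3.10 and 2.25 CPM for Map2k6 in db/+, and 1.62 and 1.36 in db/db. Fbxw2, a substrate receptor of an SCF ubiquitin ligase, measured 24.3 to 29.98 CPM on brazzein and 30.03 to 46.1 on sucrose, and its gap lay mostly in db/+, at log2 differences of -0.73 in db/+ and -0.16 in db/db. Commd6, a member of the COMMD family of endosomal sorting proteins, measured 13.9 to 17.3 CPM on brazzein and 18.5 to 26.1 on sucrose. Water gave 20.2 to 28.2 CPM for Commd6, so here the brazzein libraries were the ones that stood lower.

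Among the other 11 genes, several differed within a single genotype. Zbtb34, a zinc finger protein, was listed at 0 and measured 0.116 CPM in db/db on sucrose and lay between 8.28 and 14.5 in the other 10 brain libraries, water included. Its difference over genotypes, a log2 of 3.79 (SE 0.41, edgeR adjusted p = 0.171), lay in db/db, where it was 7.66 against -0.09 in db/+. These folds stand over a db/db sucrose group with 1 library at 0, and leaving out replicate 2 of that group moved them to 12.85 in db/db and 6.38 over both genotypes. In the 8 libraries, 15028 genes had a median of at least 100 counts. Of these, 187, Zbtb34 among them, had a library under 0.1 of that median. Among the 8, db/db sucrose replicate 1 held the most such values, 58 against 20 to 35 in the others, and had the lowest total. The cause of these low values was not tested. Zbtb34 passed over both genotypes when replicate 1 or replicate 2 of db/db sucrose was left out (edgeR adjusted p = 0.00353 and 0.00193). Kdm4b, a histone demethylase, measured 13.7 and 17.4 CPM in db/+ sucrose against 3.51 and 2.01 in db/+ brazzein, and 8.30 to 9.40 in the 4 db/db libraries. Water gave 3.50 and 4.72 CPM for Kdm4b in db/+ and 8.21 and 9.17 in db/db, so in db/+ the sucrose libraries stood apart. Fam171b, a membrane protein of neurons, measured 104 and 152 CPM in db/db brazzein and 293 to 349.8 in the other 6 libraries.

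Rgp1, a subunit of an exchange factor for the GTPase Rab6, measured 32.0 and 35.3 CPM in db/db brazzein and 56.3 to 63.2 in the other 6 libraries. Cic, a repressor acting downstream of receptor tyrosine kinases, measured 39.2 and 38.1 CPM in db/+ sucrose and 73.4 to 86.2 in the other 6. Dennd4c, an exchange factor for Rab10, measured 30.6 and 28.5 CPM in db/+ sucrose and 15.5 to 17.6 in the others. In each of these 3 genes the replicates lay close together and 1 group stood apart. Cdan1, mutated in congenital dyserythropoietic anaemia, stood apart in db/db sucrose at 8.41 and 17.9 CPM against 1.48 to 2.74 elsewhere on these drinks. Fyb, an adaptor of T cells and myeloid cells, did so in db/db brazzein at 2.98 and 2.67 CPM against 0.221 to 1.06.

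The last 3 of the 20 were Fbll1, Abca2 and Eno1b. Fbll1, a fibrillarin-like protein, measured 40.0 and 37.7 CPM in db/db brazzein, 6.57 and 12.4 in db/db sucrose, and 8.09 to 10.98 in the 4 db/+ libraries. On water it split the same way as the brazzein libraries, at 33.2 and 38.2 CPM in db/db and 8.99 and 10.7 in db/+. Abca2, a lipid transporter abundant in oligodendrocytes, measured 297 and 304 CPM in db/+ sucrose and 103 to 187 in the other 6 libraries. Eno1b, a copy of the glycolytic enzyme gene Eno1, measured 32.1 to 37.4 CPM on brazzein against 20.1 to 32.1 on sucrose. Reads of Eno1 and Eno1b can be split between the near-identical genes, so the Eno1b level is uncertain.

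**Figure D3:**
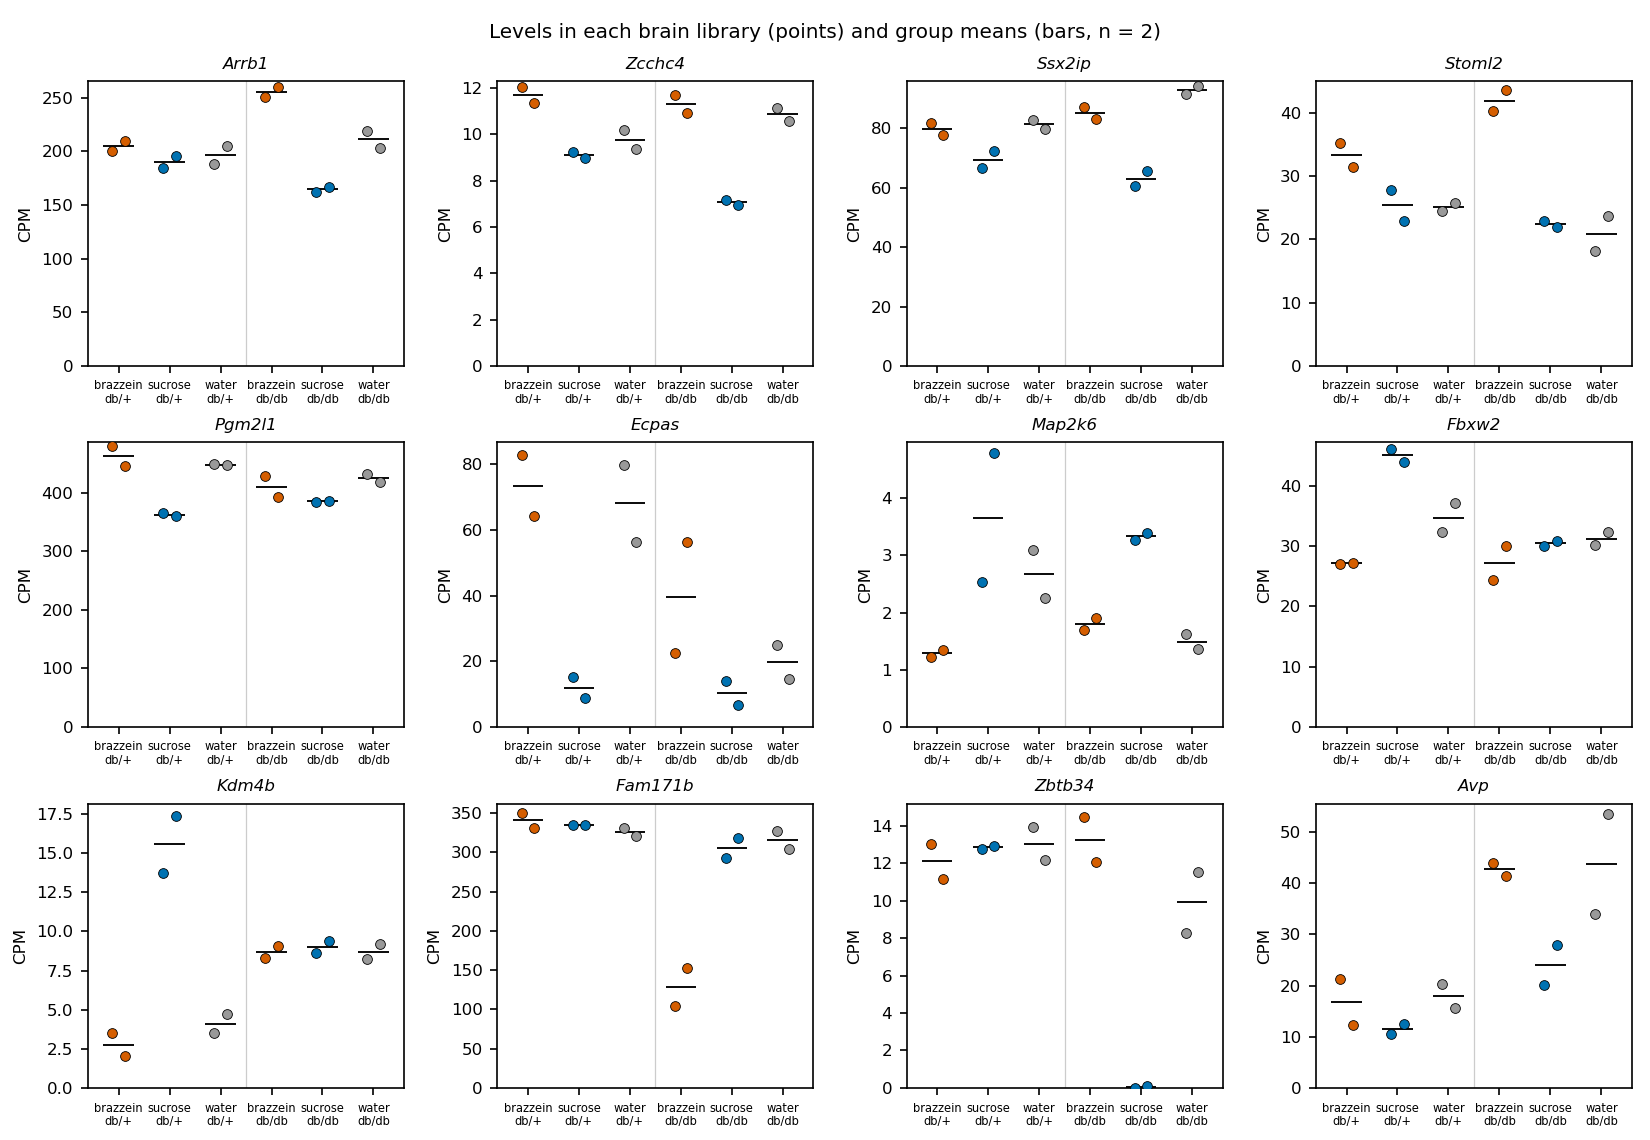
Levels in CPM (y axis from 0) of 12 genes in the 12 brain libraries, with points for libraries and bars for group means of 2. Arrb1, Zcchc4, Ssx2ip, Stoml2, Pgm2l1 and Ecpas are higher in every brazzein than in every sucrose library, and Map2k6 and Fbxw2 are lower. Fam171b and Zbtb34 stand apart in 1 group, and Avp overlaps between drinks. Kdm4b is high in db/+ sucrose, and in db/+ it is low on brazzein and on water.

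The effect of the drink was next set out by genotype. In db/db, 2 genes passed edgeR's test (0.00846% of those tested), with 1268 at an unadjusted p under 0.05, and DESeq2 called 107. They were Zbtb34, higher on brazzein (log2 7.66, adjusted p = 0.0422), and Catsper2, a subunit of the sperm calcium channel, lower on brazzein (log2 -5.17, adjusted p = 0.0227). Catsper2 measured 0.0424 and 0.0668 CPM in db/db brazzein, 1.87 and 2.21 in db/db sucrose and 0.104 to 0.246 in the other 8 brain libraries, and was named after its values were seen. Both calls were lost when either db/+ brazzein library was left out, with adjusted p-values of 0.0522 and 0.0531 for Catsper2 and 0.106 each for Zbtb34. The db/+ libraries do not enter the db/db difference, and the log2 differences were then -5.18 and 7.66, so the error estimate and the adjustment changed and the difference did not. They were also lost in a fit of the 8 libraries without water, at 0.131 for Catsper2 and 0.214 for Zbtb34. Without the 2 libraries high in Gh they were lost again, at 0.0960 and 0.162, and Fyb and Tmem127 passed in their place, at 0.0388 each. Zbtb34 alone lost its call without either db/+ sucrose library (0.0723 each) and with the replicate number as a block (0.112).

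In db/+, 0% of genes passed edgeR's test, with 751 at an unadjusted p under 0.05, and DESeq2 called 50. The difference between the genotypes' effects was tested as an interaction, and 0% of genes passed, with a smallest edgeR adjusted p of 0.0733, 1106 genes at an unadjusted p under 0.05 and 81 called by DESeq2. Of the 20 genes named above, 16 had an interaction p under 0.05 in edgeR before adjustment, beside the 1106 of all 23653 genes. The 20 were picked by p from these same libraries, and 1 group standing apart moves both comparisons, so the 16 are a description. The 20 were ranked by the mean of both genotypes, in which opposite differences of similar size cancel. Genes of that kind could hardly be among them, so their signs are a description too. Signs were opposite in 4 of the 20, and in each of these 1 genotype lay within 1 SE of 0. These values were 0.0006 for Rgp1, 0.03 for Fam171b and -0.09 for Zbtb34 in db/+, and -0.11 for Cic in db/db. The db/db and db/+ differences share no library. Across the 10284 genes with a mean of at least 10 CPM they correlated at a Pearson's r of 0.02 and a Spearman's rho of -0.04, values across genes of 8 libraries and given without a test.

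**Figure D4:**
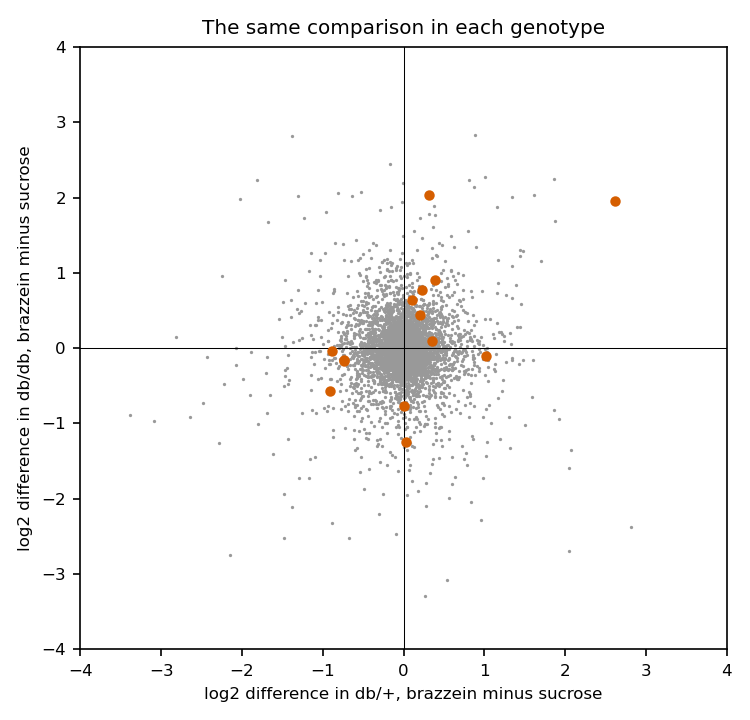
Log2 difference between brazzein and sucrose in db/db (y axis) against that in db/+ (x axis) for 10284 genes with a mean of at least 10 CPM, 5 of which lie beyond the axis limits of 4. The cloud is centred on 0 with no slope, and 14 of the 20 named genes are in orange.

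A panel of 29 genes was followed in every library, and each had an edgeR adjusted p of 1.00. For 20 of the 29 the 95% interval lay within 2-fold, and in all 29 the drinks overlapped. Avp had the smallest p of the panel. It encodes arginine vasopressin, the antidiuretic hormone made by magnocellular neurons of the hypothalamus. It measured 44.0 and 41.4 CPM in db/db brazzein against 20.1 and 28.0 in db/db sucrose, and 21.3 and 12.2 in db/+ brazzein against 10.5 and 12.5 in db/+ sucrose. On water it measured 34.1 and 53.4 in db/db and 20.4 and 15.6 in db/+, so the sucrose libraries lay lowest in db/db. Its log2 difference was 0.69 (SE 0.22, interval 0.17 to 1.20, unadjusted p = 0.0149 in edgeR). The summed level of the 18 hypothalamic markers, Avp among them, was 274 to 321 CPM on brazzein and 262 to 295 on sucrose, and its part in the Avp difference was not tested. Oxt, which encodes oxytocin and is made in neighbouring neurons, differed by 0.15 (SE 0.15). It measured 14.6 and 9.89 CPM in db/+ brazzein, 10.6 and 9.98 in db/+ sucrose, 17.1 and 15.6 in db/db brazzein and 17.1 and 14.7 in db/db sucrose.

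No neuropeptide that drives or restrains feeding passed, and how closely the difference was bounded varied between them. Npy, which promotes feeding, measured 35.2 to 43.1 CPM on brazzein and 35.0 to 39.5 on sucrose, with a log2 difference of 0.07 and an interval from -0.11 to 0.25. Agrp, made by the same arcuate neurons, was near 1 CPM in all 8 libraries and differed by 0.23 (interval -0.25 to 0.71). Hcrt, which encodes the orexins, measured 5.16 to 6.51 CPM on brazzein and 5.84 to 6.30 on sucrose. Pmch, the precursor of melanin-concentrating hormone, differed by 0.06 (interval -0.25 to 0.37), and Crh, the stress hormone that drives corticotropin, by 0.02 (interval -0.28 to 0.33). Of the 30 feeding neuropeptides and receptors listed, 0 passed, 17 were above 0 and 13 below, 23 had an interval within 2-fold, and the median log2 difference was 0.02 against 0.00 for all genes. The other 7 were bounded loosely, among them Sst, which encodes somatostatin, at -1.60 (interval -3.54 to 0.33), and Kiss1, which encodes kisspeptin, at 0.80 (interval -0.91 to 2.51). Sst was also among the 187 genes with a library far under their median. Ghsr, the ghrelin receptor, was the member whose drinks did not overlap, at 1.38 to 2.15 CPM on brazzein and 1.12 to 1.34 on sucrose. Its log2 difference was 0.47 (SE 0.21, unadjusted p = 0.0593 in edgeR).

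Immediate early genes, which neurons switch on within minutes of activity, gave no gene that passed. Fos measured 15.1 and 25.1 CPM in db/+ brazzein, 23.1 and 23.3 in db/+ sucrose, 23.9 and 11.2 in db/db brazzein, and 27.9 and 21.6 in db/db sucrose. The 2 libraries of a brazzein group thus differed more than the drinks did, and the log2 difference of -0.35 had an interval from -1.71 to 1.01. The water libraries spread further, from 5.83 to 52.0 CPM. Arc, a regulator of synaptic strength, measured 70.9 to 125 CPM on brazzein and 88.2 to 117 on sucrose, Egr1 differed by -0.23 (interval -1.09 to 0.64) and Npas4 by -0.26 (interval -1.15 to 0.63). Of 33 immediate early genes, 10 were above 0 and 23 below, with a median of -0.04, and 26 had an interval within 2-fold. Ier3 was the only one with an unadjusted p under 0.05, at a log2 of -0.17 (SE 0.07).

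Genes of dopamine and striatal signalling had a median log2 difference of 0.06, with 18 of 22 above 0 and 19 intervals within 2-fold. Drd1, the receptor of the direct striatal pathway, measured 31.7 and 33.5 CPM in db/+ brazzein, 27.8 and 32.3 in db/+ sucrose, 34.8 and 34.6 in db/db brazzein, and 34.3 in each db/db sucrose library. Drd2, the receptor of the indirect pathway, measured 19.3 to 21.2 CPM on brazzein and 18.6 to 21.8 on sucrose. Penk, an opioid precursor of the indirect pathway, measured 24.2 to 30.1 CPM on brazzein and 22.5 to 25.3 on sucrose, and its log2 difference was 0.13 (interval -0.03 to 0.30). Rgs9, which shortens dopamine receptor signalling, differed by 0.16 (SE 0.05), and Tac1, the substance P precursor of the direct pathway, by 0.18 (SE 0.07). Rgs9 and Tac1 had unadjusted p-values of 0.0126 and 0.0312 in edgeR, and adjusted values of 1.00. Markers of the striatum, 14 of which were tested, had a median of 0.08 with 11 above 0, and their summed level was 817 to 967 CPM on brazzein and 758 to 847 on sucrose. The part of tissue composition in these values was not tested, and in bulk tissue fewer cells of a type cannot be told apart from less RNA per cell.

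No gene of the other transmitter systems passed. Of 21 genes of GABA synthesis, transport and receptors, 18 were above 0 with a median of 0.05, and all 21 intervals lay within 2-fold. Gabrg3, a receptor subunit, measured 27.9, 27.2, 27.2 and 24.3 CPM in the brazzein libraries (db/+ first) and 26.6, 24.3, 20.2 and 17.5 in the sucrose libraries. Its gap lay in db/db, and its log2 difference was 0.28 (SE 0.07, unadjusted p = 0.00412 in edgeR). Of 15 serotonin genes, 10 were above 0 with a median of 0.05, all 15 intervals lay within 2-fold, and Htr2c (0.15, SE 0.05) and Htr7 (0.21, SE 0.08) had unadjusted p-values under 0.05. The 22 glutamate receptor genes had a median of 0.02, but only 15 of their intervals lay within 2-fold, and that of Grin2b, an NMDA receptor subunit, ran from -3.66 to 3.68. Grin2b, Grin2c and Grik5 were also among the 187 genes with a library far under their median. Grm2, a presynaptic receptor, measured 13.2 to 24.5 CPM on brazzein, 17.7 and 20.02 in db/+ sucrose and 4.31 and 8.41 in db/db sucrose.

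Growth factor signalling held members in both directions. Bdnf, a growth factor of neurons, measured 22.6 to 32.0 CPM on brazzein and 22.9 to 26.2 on sucrose, with a log2 difference of 0.07 (interval -0.28 to 0.43). Its receptor gene Ntrk2 lay higher in every brazzein library, at 638 to 700.2 CPM against 535 to 633 on sucrose, with a log2 difference of 0.18 (SE 0.06, unadjusted p = 0.0118 in edgeR). Nrg1, a ligand of the ErbB receptors, differed by -1.24 (SE 0.38), at 0.748 to 1.83 CPM on brazzein and 1.70 to 3.69 on sucrose. The 19 genes of this list had a median of 0.07, with 11 above 0 and 8 below.

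Genes of sugar handling and of sweet taste were measured because the drinks differ in sugar. Slc2a1, the glucose transporter of the blood-brain barrier, measured 111 to 125 CPM on brazzein and 97.4 to 132 on sucrose, with an interval from -0.23 to 0.16. Insr, the insulin receptor, ranged from 11.4 to 46.3 CPM on brazzein and from 15.9 to 43.1 on sucrose, so its log2 difference of -0.27 had an interval from -1.27 to 0.73. Tas1r3, the subunit common to the sweet and umami receptors, measured 1.02 and 0.953 CPM in db/+ brazzein, 0.894 and 0.917 in db/+ sucrose, 1.56 and 1.58 in db/db brazzein, and 1.06 and 1.43 in db/db sucrose. It lay higher in db/db than in db/+ on these drinks, and its difference between drinks was 0.23 (interval -0.26 to 0.72). Tas1r2, the subunit particular to the sweet receptor, reached at most 9 counts in any library and was not tested, and Gnat3, the taste G protein, was listed at 0 throughout. Glucose transport and glycolysis genes had a median of 0.00 with 24 of 26 intervals within 2-fold. Slc16a7, a monocarboxylate transporter of neurons, was the member with the largest difference, at a log2 of -3.62 (SE 1.17, unadjusted p = 0.0148 in edgeR). It measured 5.46 and 0.150 CPM in db/+ sucrose, 1.45 and 0.116 in db/db sucrose and at most 0.219 on brazzein, so 1 library of each genotype carried the sucrose level. Insulin and leptin signalling genes had a median of -0.03 with 22 of 24 intervals within 2-fold.

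Nuclear genes of oxidative phosphorylation lay mostly below 0. Of 43, 36 were below 0 and 7 above, but the median was -0.03 and 42 intervals lay within 2-fold. Among all genes with a mean of at least 10 CPM, 48.1% were above 0 and 90.6% had an interval within 2-fold. The 43 were measured in the same 8 libraries, so the 36 are a description. Ndufs1, a core subunit of complex I, was the exception in size, at 104, 114, 119.8 and 106 CPM in the brazzein libraries (db/+ first) and 169, 172, 149.8 and 193 in the sucrose libraries. Every brazzein library lay below every sucrose library for Ndufs1, its log2 difference was -0.62 (SE 0.19, unadjusted p = 0.0110 in edgeR), and its water libraries, from 112 to 201 CPM, covered both. Transcripts of the mitochondrial genome had a median of 0.05 over 15 genes.

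Glial and vascular markers gave no passing gene either. Gjb6, connexin 30 of astrocytes, had the smallest p of all listed genes. It measured 72.3 and 82.7 CPM in db/+ brazzein against 101 and 99.2 in db/+ sucrose, and 84.6 and 85.8 in db/db brazzein against 113 and 114 in db/db sucrose. Both genotypes differed the same way, and its log2 difference was -0.40 (SE 0.08, edgeR adjusted p = 0.731). Gjb6 was the only listed gene among the 66 calls of DESeq2. The 15 astrocyte markers had a median of 0.03 with 8 above 0, and Gfap, the astrocyte filament protein, differed by 0.20 with an interval from -0.06 to 0.47. Mbp, a myelin protein, differed by 0.00 (SE 0.05), Aif1, a microglial marker, by -0.02 (SE 0.32), and Ttr, made by the choroid plexus, by 0.01 (SE 0.09). Hbb-bs, a haemoglobin chain that marks blood left in the tissue, measured 311 to 762 CPM on brazzein and 349 to 901 on sucrose. Fkbp5, induced by glucocorticoids, differed by 0.02 (SE 0.17), at 50.2 to 98.8 CPM on brazzein and 49.1 to 88.9 on sucrose.

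Across all 43 lists, which hold 698 different tested genes, none passed in edgeR over both genotypes. At an unadjusted p under 0.05 there were 23, or 3.30%, against 4.02% of all genes, and 7 had drinks that did not overlap, or 1.00%, against 2.01%. Of these 7, Ghsr, Ntrk2 and Gng7, a striatal G protein subunit (0.12, SE 0.06), were higher on brazzein. Gjb6, Ndufs1, Lct, the lactase gene used as a hippocampal marker (-0.59, SE 0.17), and Nlrp3, an inflammasome sensor (-0.47, SE 0.19), were lower. Intervals lay within 2-fold for 584 of the 698, or 83.7%. All genes gave 70.6%, and genes with a mean of at least 1 CPM gave 88.3%. The counts above and below 0 in single lists stand beside 50.5% of all genes above 0, and are a description. The lists with the medians farthest from 0 were of cell types other than those of brain tissue, and few of their intervals lay within 2-fold. Skeletal muscle markers had a median of 0.41, with 4 of 9 intervals within 2-fold and a summed level of 5.93 to 7.24 CPM on brazzein and 5.23 to 5.89 on sucrose. Neutrophil and lymphocyte markers had a median of -0.37, with 1 of 11 intervals within 2-fold and summed levels of 4.40 to 19.5 and 14.9 to 21.2 CPM. Pituitary markers had a median of -0.35, with 3 of 11 intervals within 2-fold.

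**Figure D5:**
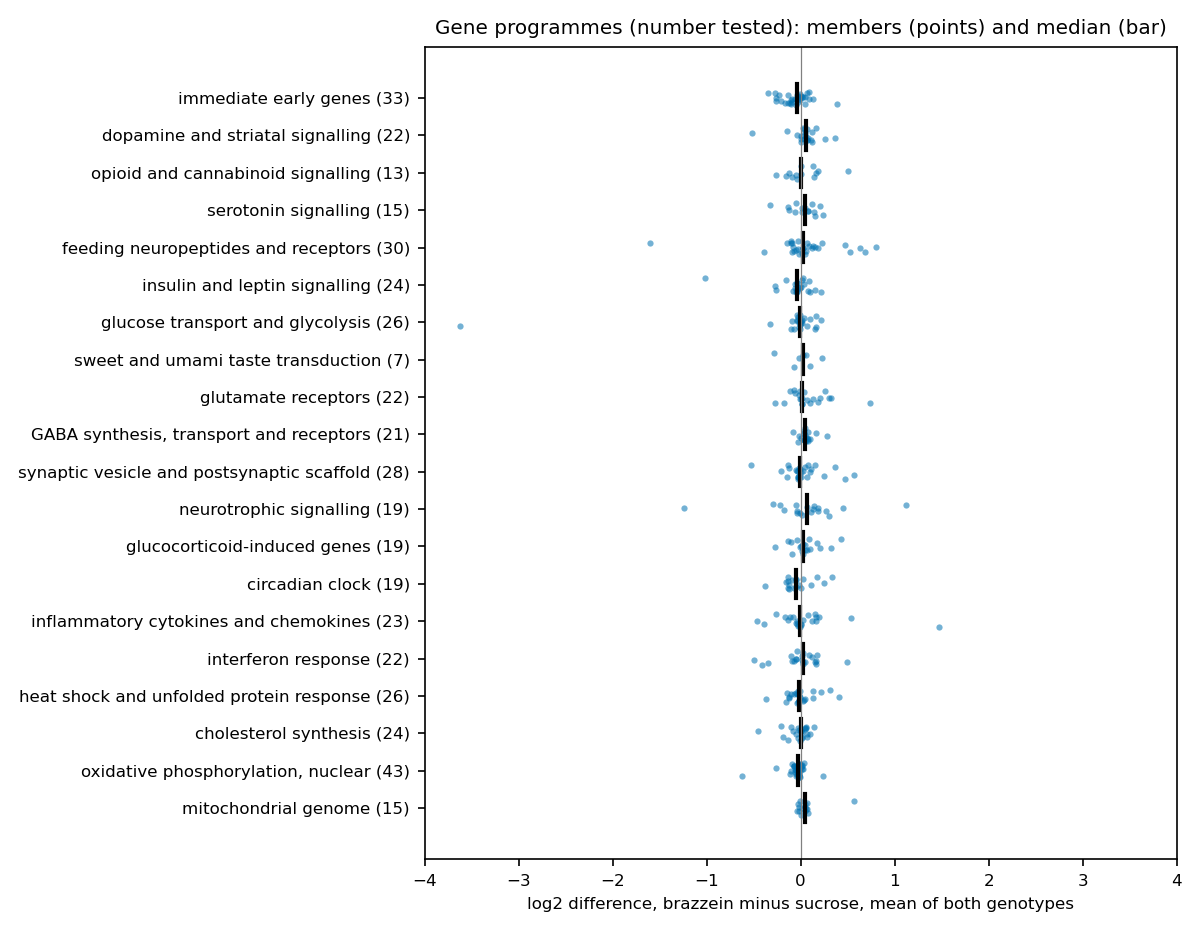
Log2 difference between brazzein and sucrose (x axis, mean of both genotypes) of each tested member (points) and the median (bars) of 20 gene programmes, with the number tested in brackets. Medians lie between -0.05 and 0.07, and no member passed edgeR's test.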

How the data were processed

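Per the labels' protocols, TRIzol was used for extraction, poly(A) RNA was selected with magnetic beads, and libraries came from a NEBNext Ultra II RNA kit. This kit does not mark strand, so reads of overlapping or antisense genes cannot be separated. The submitters' processing notes name bcl2fastq and the build GRCm39. The aligner, the annotation and the counting program were not given in the sources used here. The deposited files hold expected counts, whole numbers for 55797 gene names estimated by the authors and not scaled for depth. Because they are estimates, no counting interval is given.

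Counts of 12 brain libraries (6 groups of 2) were fitted in R 4.3.3 with edgeR 4.0.16 (TMM, filterByExpr, quasi-likelihood tests), with brazzein minus sucrose averaged over genotypes, within each genotype, and as an interaction. P-values were adjusted by Benjamini-Hochberg over 23653 genes at 0.05. CPM use TMM-scaled library sizes. Alternatives included DESeq2 1.42.0, and 2 were chosen after seeing the data: leaving out genes with a library near 0, and leaving out 3 libraries with Gh. The 3 were the 2 libraries high in Gh and db/+ water replicate 1. The named genes were a panel of 29 and the 20 of smallest p with an official symbol and a mean of at least 1 CPM. Members, panel and lists were chosen with earlier results of these data known. The steps were tested on simulated data. Some results are not reported here.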

Additional observations from a re-analysis of the deposited data

Results flagged for a closer look

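In 11 of 100 sets of 4 libraries, where a set is the level of 1 gene or the library total on 1 drink, a single library lay far from the other 3. Chance flags about 1 in 20 such sets, but Gh, Prl and Pomc were put in the panel with earlier results known and each set mixes 2 genotypes, so the number of sets is a description. Of the 11, 5 were pituitary hormones in db/+ libraries. On brazzein, replicate 2 of db/+ was far above the others in Gh (111 CPM, next 0.424), Prl (19.6, the others at 0) and Pomc (28.8, next 2.31). On sucrose, replicate 1 of db/+ was far above the others in Gh (311 CPM, next 1.53) and Prl (37.3, next 0.195).

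The other 6 were smaller in size. Npas4 was high in db/db brazzein replicate 1 (10.4 CPM, next 6.29), and Commd6 was low in db/+ brazzein replicate 1 (13.9, next 17.0). Eno1b was low in db/db brazzein replicate 2 (32.1 CPM, next 36.5), and Penk was low in db/db sucrose replicate 1 (22.5, next 24.9). In db/+ sucrose replicate 2, Hcrt was high (6.30 CPM, next 5.89) and Slc2a1 was low (97.4, next 128).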

How the results depend on the processing

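The count of calls over genotypes, 0 in edgeR, was 66 in DESeq2, 0 to 11 with any 1 library left out and 3 without the 2 libraries high in Gh (Camk2n1, Epha4 and Ube2m). It stayed 0 with RLE factors, no filter on low counts, an additive model, the 8 libraries alone and both settings added after seeing the data. In db/db the 2 calls became 107 in DESeq2, 0 to 18 with a library left out, 0 with the 8 libraries alone, 1 without genes that have a library near 0, and 0 without 3 libraries with Gh. In db/+ the 0 calls became 50 in DESeq2, 0 to 13 with a library left out, 6 without the 2 libraries high in Gh and 2 without 3. For the interaction the 0 calls became 81 in DESeq2, 1 to 13 with a library left out and 4 without the 2 libraries high in Gh. The cause of these changes was not tested.

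Over genotypes the count was 6 and 3 without db/+ brazzein replicates 1 and 2, 11 and 10 without those of db/db brazzein, 7 and 0 without db/+ sucrose, and 3 and 10 without db/db sucrose. A group left with 1 library was assumed to vary like the others.

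A replicate block left the counts at 0 over genotypes, in db/+ and for the interaction, and at 1 in db/db. Samples with the same number did not deviate together (r from -0.04 to 0.02 over 6 pairs of groups), so the numbers were not taken as pairs.

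Of 832 recomputed log2 differences of named genes, 792 neither crossed the threshold nor changed sign by more than 1 SE, 26 passed only under the alternative (20 of these in DESeq2, 6 with a library left out) and 14 changed sign by more than that. The 792 include smaller sign changes of values near 0, such as those of Lepr, Arc and Bdnf. With 1 library left out, Gh ranged from -5.53 to 2.39, and it was 1.72 without db/+ sucrose replicate 1 and 2.39 without db/db sucrose replicate 2. Pomc ranged from -0.86 (without db/+ brazzein replicate 2) to 1.07, Oxt from -0.0082 (without db/+ brazzein replicate 1) to 0.28, Mbp from -0.049 (without db/+ brazzein replicate 2) to 0.048, and Slc2a1 from -0.13 to 0.068 (without db/+ sucrose replicate 1). Without the 2 libraries high in Gh, and again without the 3, Pomc was -0.30 both times, Mbp -0.076 both times, Slc2a1 0.094 both times and Insr 0.43 both times. With 2 libraries in each group, a gene whose replicates differ widely, such as Fos or Insr, had an interval beyond 2-fold.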
